A study of Mus musculus with 3 samples.

Results

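Peaks of the nucleoporin Seh1 and of a control IgG were examined at 8 genes of the neurexin, neuroligin and Cntnap families: Nrxn2, Nrxn3, Nlgn1, Nlgn2, Cntnap2, Cntnap4, Cntnap5a and Cntnap5b. A peak was counted for a gene when the gene name on its line of the authors' deposited list was that gene. By this rule 15 of 16113 Seh1 peaks and 16 of 5314 IgG peaks belonged to the 8 genes. Nrxn2 and Nlgn2 had no line in either list, so 6 of the 8 genes had a peak in at least 1 list.

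The chromatin came from primary neural stem cells of wild-type mice, grown from newborn cortex in medium with EGF and bFGF and fixed with formaldehyde while proliferating. ChIP-seq, which sequences the DNA pulled down with an antibody, gave 1 library with an antibody to Seh1, a subunit of the nuclear pore and of GATOR2, and 1 with IgG, which has no chromatin target. The third library was input chromatin; both lists pair their library with it, and no values of its own were used here. Each group thus had 1 library with no replicate, no test compares the groups, no label says how many cultures or animals lie behind a library, and peak lists hold no expression values against which the cell type could be checked. Coordinates are in mm10. The deposited peak score is 0 on every line, so peaks have a position, a width and an annotation, but no height, and the read depth is unknown.

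Neurexins are presynaptic adhesion proteins that bind neuroligins on the postsynaptic side, and the pair helps to organise excitatory and inhibitory synapses. Neurexin genes carry an upstream promoter for the long alpha form and an internal promoter for the short beta form. Contactin-associated proteins, encoded by the Cntnap genes, are related to neurexins in their domains; Cntnap2 helps to cluster potassium channels beside the node of Ranvier on myelinated axons. These genes are known mainly for their roles in neurons, and several are among the longest genes of the mouse genome.

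The Seh1 list held few peaks inside these genes for their length, whereas the IgG list held about as many as elsewhere. Together the 8 gene bodies cover 6.83 Mb and contained 9 Seh1 peak centres, or 1.32 per Mb, with a 95% exact Poisson interval of 0.603 to 2.50. They contained 16 IgG peak centres, or 2.34 per Mb (1.34 to 3.81). Along the placed chromosomes, Seh1 peaks occurred at 6.03 per Mb and IgG peaks at 1.96 per Mb. At those densities 41.2 Seh1 and 13.4 IgG peaks would fall on the same length of DNA. These numbers take no account of gene length, and long genes as a class were poorer in Seh1 peaks. Other protein-coding genes of 500 kb or more had 3.75 Seh1 peaks per Mb, and those of 1 Mb or more had 2.66. The intervals cover counting error only.

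The Seh1 list is 3.03 times as long as the IgG list, and inside the bodies of these genes there were 0.562 Seh1 peaks per IgG peak. Long genes as a class also lay below the whole lists. The ratio inside bodies was 1.91 in other protein-coding genes of 500 kb or more and 1.55 in those of 1 Mb or more. By name, the 8 genes had 15 Seh1 and 16 IgG peaks. All 9 Seh1 peaks inside the bodies carried the name of their own gene. Of the 16 IgG peaks inside, 12 did; 3 in Cntnap5a carried no gene name and 1 at the end of Nrxn3 carried the name of Dio2. A count by name therefore misses IgG peaks that lie within these genes.

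**Figure D1:**
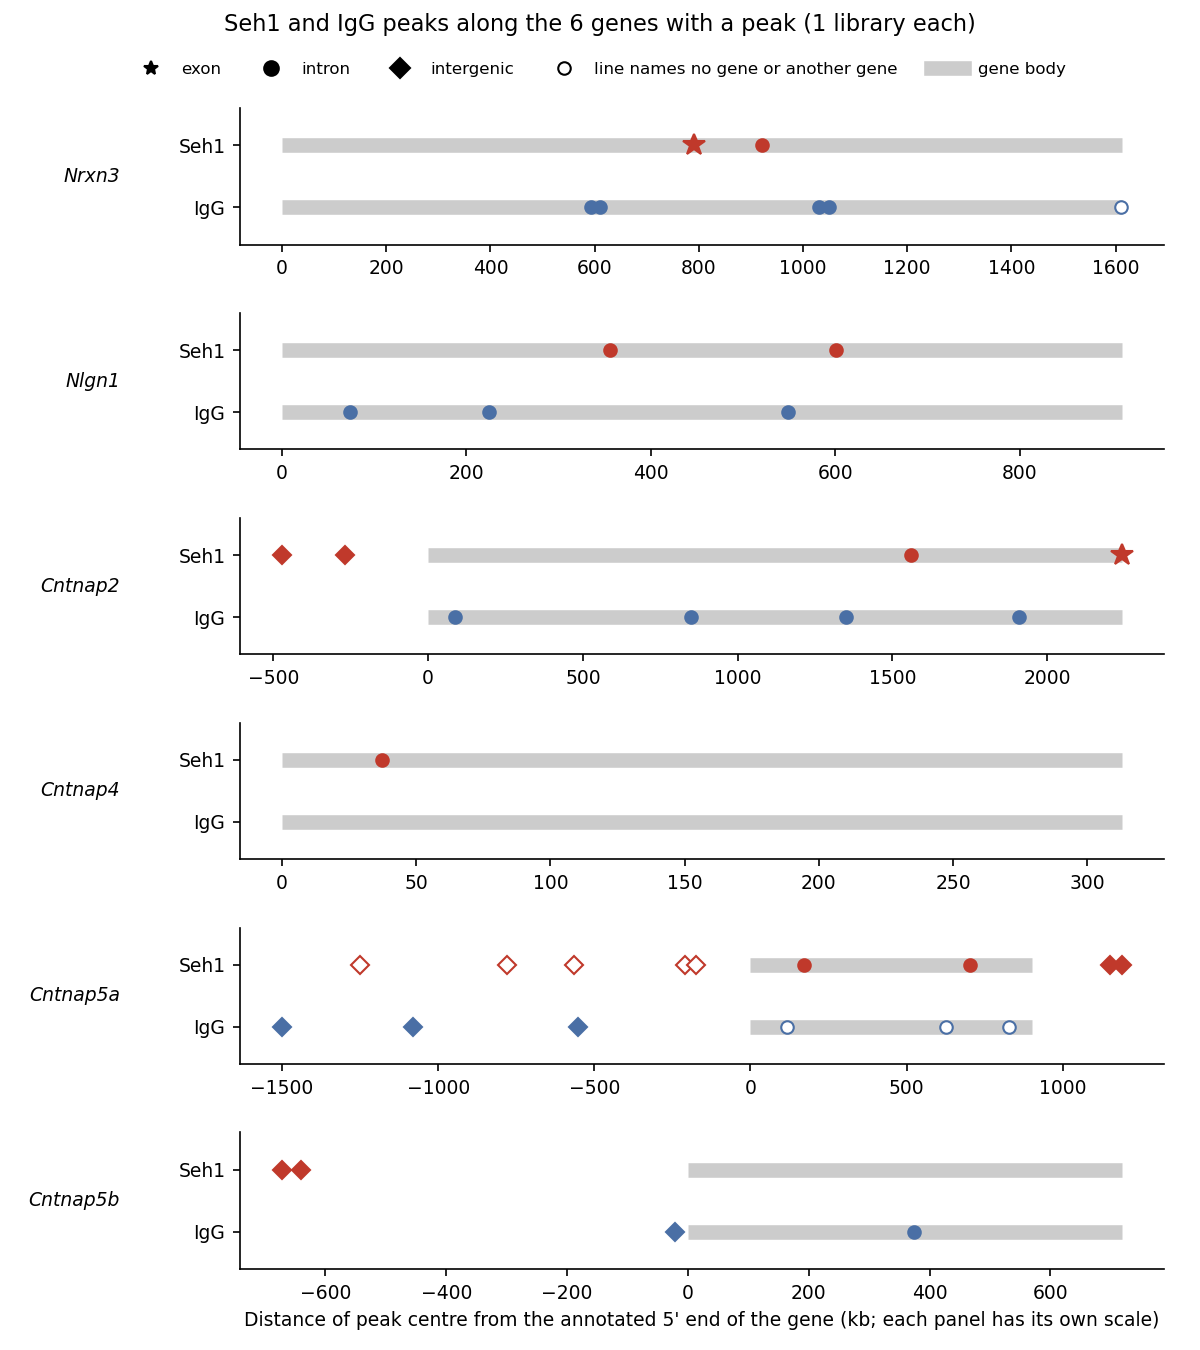
Peak centres of the Seh1 list (upper row of each panel) and of the IgG list (lower row), by their distance in kb from the annotated 5′ end of each of the 6 genes with a peak; the grey bar is the gene body, the symbol gives the annotation class, and open symbols are lines that name no gene or another gene. In Nrxn3, Nlgn1, Cntnap2, Cntnap5a and Cntnap5b, IgG peaks inside the body outnumber Seh1 peaks, and the 2 exon peaks are both from the Seh1 list.

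Nrxn3, a neurexin gene of 1610 kb at positions 88722701 to 90334935 of chromosome 12, held 2 Seh1 and 5 IgG peaks, or 1.24 and 3.10 per Mb. The whole of chromosome 12 had 6.58 Seh1 and 2.32 IgG peaks per Mb. The first Seh1 peak, of 314 bp from 89512954 to 89513267, lay in exon 13 of 20 of a long RefSeq transcript, 49.0% of the way along the gene. The other, of 246 bp from 89643818 to 89644063, lay in intron 14 of 19 with an L1Md_F2 element at its centre, L1Md_F2 being a young type of LINE retrotransposon. Both lay upstream of the internal start site that the annotation took as nearest, by 299 and 169 kb.

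Some IgG peaks of Nrxn3 lay in pairs within an intron, and their spacing was not compared with that in other genes. A pair in intron 6 was 18.2 kb apart, from 89315645 to 89315945 and from 89333823 to 89334221, and a pair in intron 14 was 21.4 kb apart, from 89748510 to 89748856 and from 89769872 to 89770238. The fifth lay in the last intron, from 90329718 to 90329965, 5.09 kb before the 3′ end. Its line names Dio2, a thyroid hormone deiodinase gene, because the start site of Dio2 was the nearest. The Seh1 and IgG peaks of intron 14 were at least 105 kb apart.

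No peak of either list lay within 10 kb of any of the 9 member start sites in the RefSeq promoter table, which covers 5 of the 8 genes. The share of all 32851 promoter entries with a peak that near was not counted. The absence is therefore not a trait of these genes. The sequences below are the 120 bases before the starts from which the annotation measured the distances of the Nrxn3, Nlgn1 and Cntnap2 peaks. They are given 5′ to 3′ on the strand of the gene, with each CG dinucleotide in capitals (RefSeq, GRCm38.p6). CG reads the same on both strands.
Nrxn3 upstream start (chr12:88953270-88953389, plus strand): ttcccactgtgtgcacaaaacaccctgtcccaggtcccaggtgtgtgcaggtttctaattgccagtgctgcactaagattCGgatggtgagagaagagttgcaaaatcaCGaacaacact
Nrxn3 internal start (chr12:89812363-89812482, plus strand): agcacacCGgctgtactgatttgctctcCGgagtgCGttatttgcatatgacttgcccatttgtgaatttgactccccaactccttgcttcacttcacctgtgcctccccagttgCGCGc
Nlgn1 upstream start (chr3:26331910-26332029, minus strand): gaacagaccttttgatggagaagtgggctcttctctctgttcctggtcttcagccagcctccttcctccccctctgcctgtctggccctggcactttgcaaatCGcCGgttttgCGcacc
Nlgn1 internal start (chr3:26153987-26154106, minus strand): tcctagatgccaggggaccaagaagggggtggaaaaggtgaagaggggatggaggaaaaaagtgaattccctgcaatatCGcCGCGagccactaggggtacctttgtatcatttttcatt
Cntnap2 upstream start (chr6:45059941-45060060, plus strand): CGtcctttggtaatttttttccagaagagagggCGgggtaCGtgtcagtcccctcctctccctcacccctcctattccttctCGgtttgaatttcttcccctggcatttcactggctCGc
Cntnap2 internal start (chr6:47244276-47244395, plus strand): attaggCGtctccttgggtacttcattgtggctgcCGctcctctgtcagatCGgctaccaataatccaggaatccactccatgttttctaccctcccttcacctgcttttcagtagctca

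In the 250 bases before the start, the internal promoter of Nrxn3 held 12 CG dinucleotides and the upstream one shown held 5. The order was the opposite in Cntnap2, with 13 at the upstream and 3 at the internal start, and in Nlgn1, with 9 and 5. The median over 32851 RefSeq promoter entries was 6, and 92.1% of entries held at least 1. The peak nearest to any of these 6 starts was an IgG peak 42.4 kb from the internal start of Nrxn3, and the nearest Seh1 peak was 54.2 kb from the internal start of Cntnap2. These are letters of the reference, and no binding was measured at them.

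Nlgn1, the gene of neuroligin-1 of excitatory synapses, spans 911 kb on chromosome 3 from 25421808 to 26332866 and is read from the minus strand. It held 2 Seh1 peaks (2.20 per Mb) and 3 IgG peaks (3.29 per Mb), against 5.06 and 2.44 per Mb over chromosome 3. The Seh1 peak from 25731938 to 25732253 lay in intron 4 of 6 and was the only Seh1 peak of the 8 genes, among those in introns or between genes, without a repeat at its centre. The second, from 25977159 to 25977423, lay in intron 3 of 7 over an Lx element, an older LINE.

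The IgG peaks of Nlgn1 lay in introns 1 and 3 of 7 of a RefSeq transcript and in intron 4 of 6 of another. The IgG peak of intron 4, from 25784120 to 25784564, was the widest of the 8 genes in that list at 445 bp, and its centre was 52.2 kb from that of the Seh1 peak in the same intron. This was the smallest gap between a Seh1 peak of these genes, as counted by name, and any IgG peak. The peak in intron 3, from 26108516 to 26108819, had an L1Md_T element at its centre. The peak in intron 1, from 26259326 to 26259623, had no repeat and was 72.4 kb downstream of the upstream start.

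Cntnap2 is the longest of the 8 genes, with 2240 kb on chromosome 6 from 45060061 to 47301393. It was given 4 peaks in each list, but they were placed differently. All 4 IgG peaks were in introns (1, 3, 11 and 15), whereas 2 of the 4 Seh1 peaks were intergenic, 1 was in an intron and 1 in an exon. Inside the body this left 0.892 Seh1 and 1.78 IgG peaks per Mb, against 6.24 and 2.10 over chromosome 6.

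The exon peak of Cntnap2 had the minimum width of the Seh1 list, 243 bp from 47298431 to 47298673, and lay in exon 4 of 4 of a short RefSeq transcript that begins at the internal start. Its centre was 54.2 kb downstream of that start and 2.84 kb before the 3′ end of the gene. The intron peak, from 46616346 to 46616732, lay in intron 13 of 23 over an RMER13B element, a long terminal repeat (LTR) of the ERVK group. Its distance is listed as 628 kb upstream of the internal start, while it lay 1560 kb downstream of the 5′ end of the gene. The intergenic Seh1 peaks lay upstream, at 472 kb over RMER1A (44587767 to 44588009) and at 267 kb over an rRNA-derived repeat (44792975 to 44793324). That rRNA repeat name was at the centre of 9 Seh1 peaks and 0 IgG peaks in all, and RMER1A at 75 and 0.

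The IgG peaks of Cntnap2 were spread over the gene, at 3.85%, 37.9%, 60.2% and 85.2% of its length from the 5′ end. Their centres lay over an LTR16C element (45146241 to 45146476), a B1_Mus2 SINE (45908997 to 45909366), no repeat (46408543 to 46408858) and a MER44B DNA transposon (46966494 to 46966729). The Seh1 peaks inside the gene lay at 69.6% and 99.9%. No IgG peak was closer than 71.1 kb to a Seh1 peak given to Cntnap2.

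Cntnap4, of 313 kb on chromosome 8 from 112569798 to 112882707, was the only one of the 8 genes with a peak in the Seh1 list alone. Its single peak, from 112607075 to 112607317, was in intron 1 of 23, over an Lx10 LINE, and at 243 bp was as narrow as any in the list. At 37.2 kb from the start site it was the Seh1 peak of these genes nearest to a TSS. The nearest IgG peak to the gene was 91.8 kb beyond its ends. With 1 peak against none, the lists cannot be told apart at this gene.

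Cntnap5a and Cntnap5b, on chromosome 1, belong to the Cntnap5 subgroup. Cntnap5a spans 903 kb from 115684737 to 116587323 and held 2 Seh1 peaks (2.22 per Mb) and 3 IgG peaks (3.32 per Mb) inside its body, against 5.53 and 1.97 over the chromosome. By name it was given 4 Seh1 peaks, 2 of them past its 3′ end, and 3 IgG peaks, all upstream of it. The 3 IgG peaks inside the body, in introns 1, 13 and 19 of 23, carry no gene name because the transcript listed as nearest on those lines was not paired with one. That transcript belongs to Cntnap5a in the RefSeq table. On 5 further lines of the Seh1 list, all upstream of the gene by 174 to 1250 kb, the same transcript stands without a name. With these lines added, the 8 genes had 20 Seh1 and 19 IgG peaks.

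Within Cntnap5a, introns 1 and 13 held a peak of each list, and intron 19 held an IgG peak alone. In intron 1 the Seh1 peak (115856059 to 115856317, over a (CA)n simple repeat) and the IgG peak (115800292 to 115800703, over L1Md_T) were 55.7 kb apart. In intron 13 the Seh1 peak (116386290 to 116386708, over L1VL2, a LINE) was 74.6 kb from the IgG peak (116311722 to 116311990, with no repeat). The former was the widest Seh1 peak of the 8 genes, at 419 bp, and was wider than 92.6% of the Seh1 list. The Seh1 peaks beyond the 3′ end, at 116839211 to 116839468 and 116878089 to 116878331, lay over L1Md_F2 and RMER1A. The closest approach of both lists at this gene was upstream, where an IgG peak 551 kb before the start and an unnamed Seh1 line 564 kb before it were 13.5 kb apart.

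Cntnap5b, of 718 kb from 99772246 to 100490599, held no Seh1 peak and 1 IgG peak (1.39 per Mb) inside its body. Its Seh1 peaks by name were intergenic, 641 and 672 kb upstream, at 99131667 to 99131923 over RLTR10-int and at 99100501 to 99100743 over MTA_Mm-int, both internal parts of LTR elements. These repeat names were frequent in the Seh1 list as a whole, with 110 and 147 peaks, and rare in the IgG list, with 1 and 5. The IgG peaks of Cntnap5b lay 20.9 kb upstream (99751365 to 99751600, over an Lx8 LINE) and in intron 8 of 23 (100146107 to 100146342). The former was the peak of either list nearest to an annotated start among the peaks named for the 8 genes.

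Nrxn2 (114 kb, chromosome 19 from 6418756 to 6533217) and Nlgn2 (14.7 kb, chromosome 11 from 69823123 to 69837784), the gene of neuroligin-2 of inhibitory synapses, are the shortest of the 8 genes. The Seh1 peaks nearest to their bodies lay 25.0 kb from Nrxn2, in an exon, and were given to Rasgrp2, and 23.1 kb from Nlgn2, where the peak was intergenic and given to Tnk1. The nearest IgG peaks were 53.4 and 510 kb away. Among all 20789 protein-coding genes under 200 kb, 16.8% contained a Seh1 peak centre and 4.37% an IgG peak centre. Most genes of that class thus held no peak, as did Nlgn2. Most are also shorter than Nrxn2, as the median protein-coding gene has 17.2 kb. Of protein-coding genes of 100 kb or more, 62.1% were given a Seh1 peak by name and 31.7% an IgG peak.

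By name, 6 of the 8 genes were given a Seh1 peak, against 31.9% of all protein-coding genes, 62.1% of those of 100 kb or more, 78% of those of 500 kb or more and 71.2% of those of 1 Mb or more. In the IgG list 5 of the 8 genes were given a peak, against 11.3%, 31.7%, 67% and 76.3% of the same classes. The same 5 genes, Nrxn3, Nlgn1, Cntnap2, Cntnap5a and Cntnap5b, were given peaks in both lists, against 6.42% of all and 54.6% of the long genes. These 5 are the ones of 500 kb or more, and all 5 were thus given a peak in each list, against the 78%, 67% and 54.6% of genes of that length; the members were chosen with the lists known, and the count was not tested. Inside the body, 4 of these 5 genes held a Seh1 peak and all 5 an IgG peak, against 82.8% and 72.7% of the 227 protein-coding genes of that length and 19.5% and 6.26% of all protein-coding genes.

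The 222 other protein-coding genes of 500 kb or more were also poorer in Seh1 peaks than shorter genes, with 3.75 per Mb (95% exact Poisson interval 3.48 to 4.04), against 7.32 in genes of 100 to 500 kb and 7.97 in genes under 100 kb. IgG density hardly moved with length, at 1.97, 1.87 and 1.94 per Mb. The 5 long members had 1.25 Seh1 peaks per Mb (0.541 to 2.47) and 2.51 IgG peaks per Mb (1.43 to 4.07). Their Seh1 interval lies below that of the other genes of 500 kb or more but overlaps that of the 57 other genes of 1 Mb or more, which had 2.66 Seh1 (2.31 to 3.06) and 1.72 IgG peaks per Mb. Single genes varied far more than these intervals. Of the 222 other long genes, 38 held no Seh1 peak, and 20.3% had a lower Seh1 density than Cntnap2, 25.7% than Nrxn3 and 42.3% than Nlgn1 or Cntnap5a. All 5 long members held more IgG than Seh1 peaks, as did 65 of the 222 others (29.3%). The difference between these 5 genes and other long genes was not tested.

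**Figure D2:**
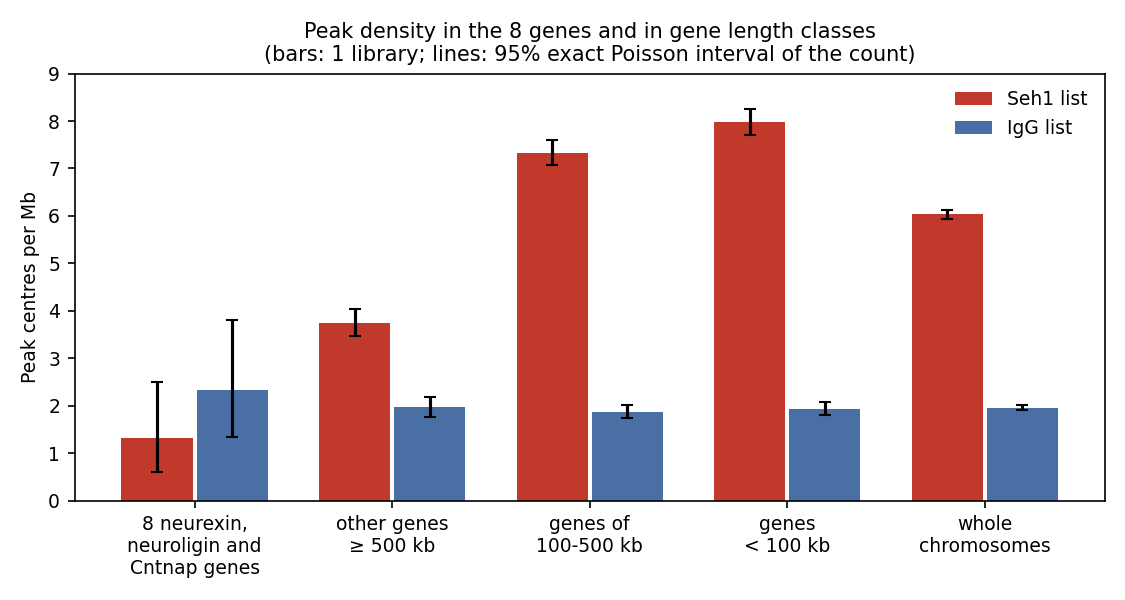
Peak centres per Mb (vertical axis) of the Seh1 and IgG lists in the 8 genes, in other protein-coding genes by length and along whole chromosomes; each bar is 1 library and the lines are 95% exact Poisson intervals. Seh1 density is 7.97 per Mb in genes under 100 kb, 3.75 in other genes of 500 kb or more and 1.32 in the 8 genes, while the 5 IgG bars lie between 1.87 and 2.34.

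**Figure D3:**
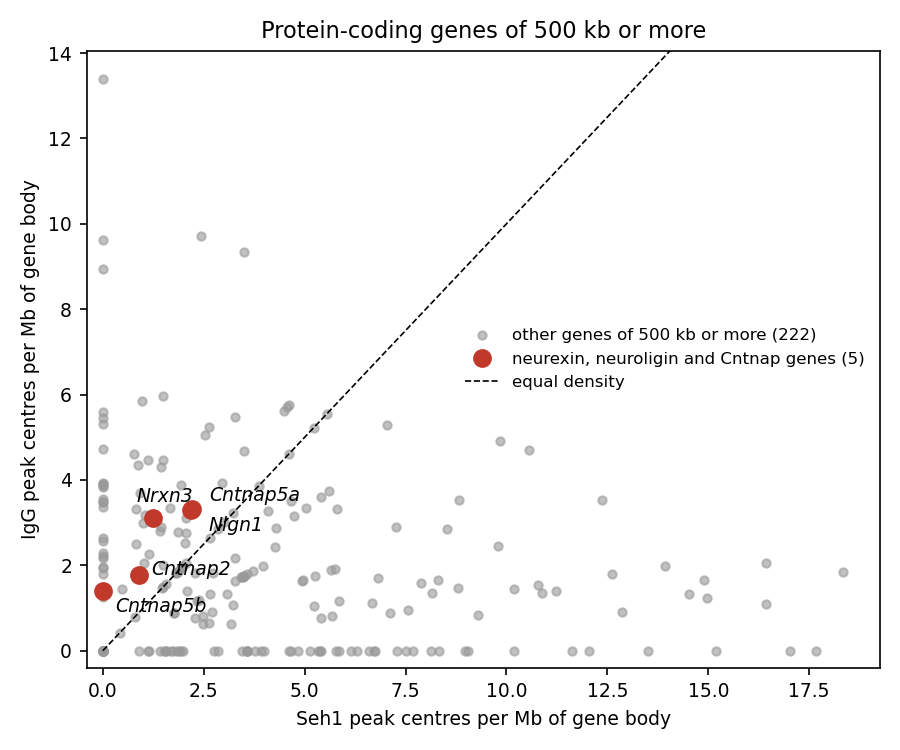
Seh1 (horizontal) against IgG (vertical) peak centres per Mb of gene body for the 227 protein-coding genes of 500 kb or more; each point is a gene and the dashed line marks equal density. The 5 long members (Nlgn1 and Cntnap5a almost coincide) lie above the line at 0 to 2.22 Seh1 peaks per Mb, within the range of the grey points.

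The long genes most like these 5 pooled, by the smallest sum of the absolute differences in both densities, were Pcdh9, Prkg1 and Ralyl. Pcdh9, a protocadherin gene, held 1 Seh1 and 2 IgG peaks in its body, with a sum of 0.346 per Mb. Prkg1, which encodes a cGMP-dependent kinase, held 1 and 3 (0.427 per Mb). Ralyl held 1 and 2 (0.463 per Mb). The likeness rests on 2 libraries and on at most 3 peaks per gene and list.

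The classes of the peaks were compared next, first exons. Of the 15 Seh1 peaks, 2 (13.3%, 95% exact binomial interval 1.66 to 40.5%) were in the authors' exon class, the peaks of Nrxn3 and Cntnap2 described above, against 5.37% of the whole Seh1 list and 2.01% of the 547 Seh1 peaks given to other long genes. Of the 16 IgG peaks none was in an exon, which allows a share of up to 18.8% (3 counts of 16), and the whole IgG list had 1.09%. At this number of peaks the exon shares of both lists overlap in their intervals. Of all protein-coding genes 3.34% were given a Seh1 exon peak and 0.202% an IgG exon peak; of the 227 long genes the shares were 5.73% and 0%.

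Introns held 7 of 15 Seh1 peaks (46.7%, 21.3 to 73.4%) and 12 of 16 IgG peaks (75%, 47.6 to 92.7%). Intergenic sequence held 6 Seh1 (40%) and 4 IgG peaks (25%). For the other long genes the intron shares were 60.1% and 54%, so the 8 genes departed in opposite directions in the 2 lists, by less than their intervals. No peak of either list was in a promoter, UTR or termination site class. These classes were rare over the whole lists, so their absence among so few peaks says little about these genes. Promoters held 0.881% of all Seh1 and 0.452% of all IgG peaks, termination sites 1.03% and 0.979%, and 3′ UTRs 0.919% and 0.96%. Inside the bodies, first introns held 2 Seh1 and 3 IgG peaks and later introns 5 and 13. The 6 intergenic Seh1 peaks belonged to Cntnap2, Cntnap5a and Cntnap5b, and 4 of them lay over 500 kb from the start.

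Of the 16 annotated introns with a peak, 5 held peaks of both lists: introns 1 and 13 of Cntnap5a, introns 3 and 4 of Nlgn1 and intron 14 of Nrxn3. Introns are numbered in the transcript named on each line, which differs between lines of Nlgn1 and of Nrxn3. Shared introns were not counted in other long genes. Seh1 peaks alone were in 2 introns and IgG peaks alone in 9. The smallest gaps between centres within the shared introns were 52.2 to 131 kb, so a shared intron is not a shared site. Overlap with an IgG peak was found for none of the 15 Seh1 peaks, against 0.372% of all Seh1 peaks, a share too low to be seen among 15 peaks, where a count of 0 allows up to 20% (3 counts of 15). The median distance from these Seh1 peaks to the nearest IgG peak was 148 kb, and over the whole Seh1 list it was 260 kb.

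Repeats were frequent at the Seh1 peaks of these genes. The authors' annotation names a repeat at the centre only for intron and intergenic peaks. Of 13 such Seh1 peaks 12 had one (92.3%, 64.0 to 99.8%), against 43.7% of the whole list and 52.3% of those given to other long genes. Of 16 IgG peaks 10 had one (62.5%, 35.4 to 84.8%), against 54% and 46.4%. LINE elements were at 5 of the 13 centres in the Seh1 list and at 3 of the 16 in the IgG list, LTR elements at 3 and 2, and SINE elements at 0 and 3. Over the whole lists, LINE elements were at 11.6% (Seh1) and 33% (IgG) of such peaks, LTR elements at 18.7% and 9.92%, and SINE elements at 7.58% and 5.06%. Among peaks given to other long genes the LINE shares were 19.7% and 30.7%, both inside the intervals of the 8 genes (13.9 to 68.4% and 4.05 to 45.6%). RMER1A was at 2 Seh1 peaks, of Cntnap2 and Cntnap5a, and L1Md_F2 at 2, of Nrxn3 and Cntnap5a; L1Md_T was at 2 IgG peaks by name, of Nlgn1 and Cntnap5a. How multiply mapping reads were placed is not stated in the labels, headers or notes, which leaves it uncertain which copy of a repeat such a peak marks. The difference in repeat share was not tested.

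**Figure D4:**
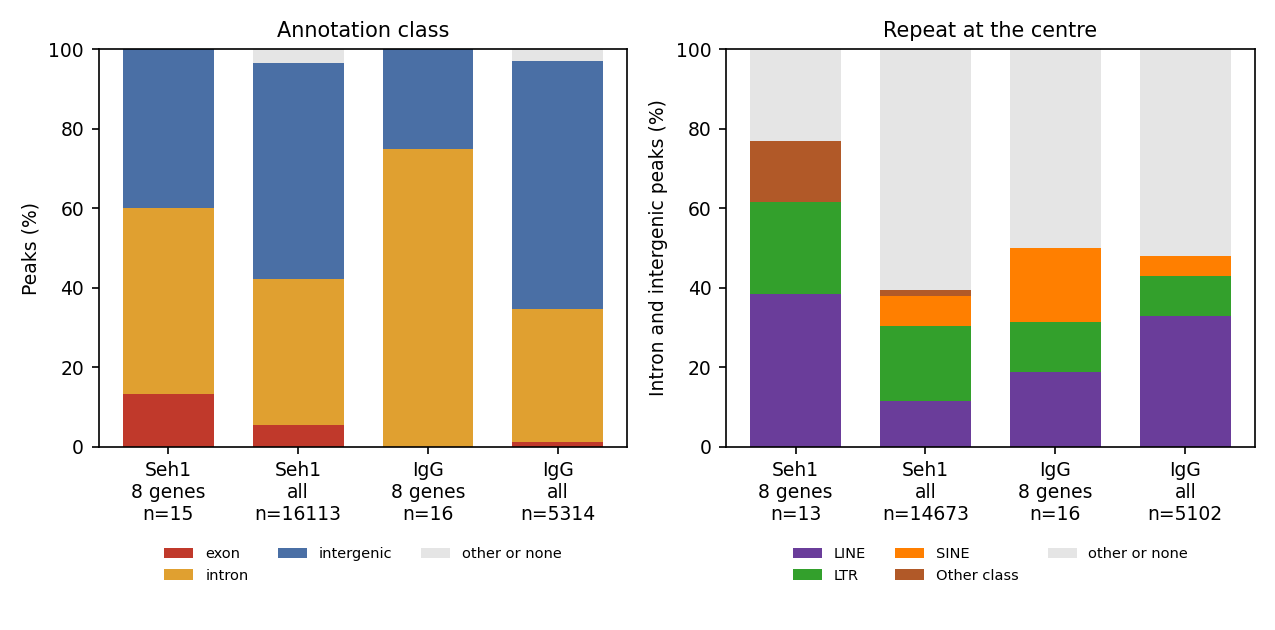
Annotation class of all peaks (left) and repeat class at the centre of intron and intergenic peaks (right), in % of the peaks of the 8 genes and of each whole list, with the number of peaks under each bar. The 8 genes have more intron peaks in the IgG list (75%) than in the Seh1 list (46.7%), and the LINE share of their Seh1 peaks is 38.5% (interval 13.9 to 68.4%), against 11.6% of that whole list and 19.7% of Seh1 peaks given to other long genes, which are not drawn.

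Widths overlapped between the lists, and both whole lists had a median of 266 bp. The 15 Seh1 peaks were 243 to 419 bp wide (median 258 bp), and 5 (33.3%) had the minimum width, against 27.2% of the whole list. The 16 IgG peaks were 236 to 445 bp wide (median 300 bp), and 6 (37.5%) had the minimum, against 38%. The distance to the nearest TSS was large in both lists, with medians of 422 kb (37.2 to 1190 kb) for Seh1 and 366 kb (20.9 to 1500 kb) for IgG, against 37.8 and 57.4 kb over the whole lists. Within 100 kb of a TSS lay 13.3% of the Seh1 peaks (1.66 to 40.5%) and 37.5% of the IgG peaks (15.2 to 64.6%). Among peaks given to other genes of 500 kb or more the shares were 42% and 32.3%. These differences were not tested.

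Counted beside them were 4 further genes of the families, which differed among themselves. Cntnap5c (649 kb) went the other way from the 5 long members, with 3 Seh1 peaks inside its body, 1 of them in an exon, and no IgG peak. Inside the bodies, Cntnap3 held 1 Seh1 peak, while Nlgn3 and Cntnap1 held none of either list. By name, Cntnap5c was given 4 Seh1 peaks, Cntnap3 1 and Cntnap1 1, the last lying 5.71 kb outside its body. No IgG peak was given to these genes by name. With the members, the bodies of these 12 genes held 13 Seh1 and 16 IgG peaks in 7.68 Mb, or 1.69 and 2.08 per Mb.

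Known partners of these proteins were counted as 4 lists with 62 genes. Their median length was 155 kb, against 17.2 kb over all protein-coding genes, and 41 (66.1%) were given a Seh1 peak and 30 (48.4%) an IgG peak. The background was 31.9% and 11.3% of all protein-coding genes and 62.1% and 31.7% of those of 100 kb or more, so the Seh1 share lies near that of genes of 100 kb or more. The median gene had 1 Seh1 and 0 IgG peaks, against 0 and 0 over all protein-coding genes. Partners at the synaptic cleft were given a Seh1 peak in 17 of 22 genes (77.3%) and an IgG peak in 11 (50%). By name the latrophilin genes Adgrl2 and Adgrl3 had 6 and 4 Seh1 and 3 IgG peaks each. Mdga1, which binds neuroligins, had 3 and 0. Inside the bodies Adgrl2 and Mdga1 held 1 Seh1 and 0 IgG peaks each, and Adgrl3 held 0 and 0. Contactins and axonal partners had 6 (54.5%) and 4 (36.4%) of 11, with Cntn5 at 6 Seh1 and 3 IgG peaks, Cntn6 at 1 and 2 and Adam22 at 1 and 0. Their bodies held 2 and 0, 0 and 0, and 1 and 1. Scaffold genes had 6 (50%) and 3 (25%) of 12, with Dlgap1 at 7 and 4, Shank2 at 7 and 0 and Magi2 at 4 and 0.

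Other synaptic adhesion genes were given a peak in 12 of 17 (70.6%) in each list, against 62.1% (Seh1) and 31.7% (IgG) of protein-coding genes of 100 kb or more. Their median length was 93.2 kb, but 7 of the 17 had 500 kb or more. Of all protein-coding genes of that length, 78% were given a Seh1 peak and 67% an IgG peak. Among them was Ptprd, a receptor phosphatase gene, with 9 Seh1 and 3 IgG peaks by name and 7 and 3 inside its body. Cadm1 had 7 and 0 by name and 3 and 0 inside. Slitrk5, of 8.03 kb, had 6 and 6 by name and 0 and 0 inside. The longest partner gene without a Seh1 peak was the contactin gene Cntn4 (1020 kb), with 4 IgG peaks, all in its body. Seh1 density inside the bodies ranged from 1.51 per Mb (0.554 to 3.28) in contactins and axonal partners to 5.73 (3.99 to 7.96) in scaffolds, and IgG density from 1.17 to 2.58. The interval of the scaffold list lies above that of the 8 genes (0.603 to 2.50), and that of the contactin list overlaps it. Gene length was not matched. Of the 12 scaffold genes 3 have 500 kb or more (median 270 kb), and of the 11 contactin and axonal genes 2 (median 291 kb). Of the 8 genes, 5 do. Protein-coding genes of 100 to 500 kb had 7.32 Seh1 peaks per Mb, against 3.75 in other genes of 500 kb or more. Of the 35 Seh1 peaks inside scaffold genes, Dlgap1 held 9, Shank2 10 and Magi2 8, so the scaffold density rests mostly on these genes. The intervals cover counting error only, and these differences were not tested.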

How the data were processed

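The deposited lists hold 1 line per peak of the Seh1 and of the IgG library, called per library and named against input. Per the file headers, the authors annotated them with HOMER annotatePeaks.pl on mm10; the submitters' processing notes name Bowtie2 and HOMER with no version and, at odds with the headers, the human builds hg18 and hg38. Neither these nor the labels state the caller, its threshold, a duplicate filter or the depth. The deposited score is 0 on all lines, so wider peaks served as the stricter set.

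Lines were taken by gene name. Gene bodies came from the RefSeq table of GRCm38.p6, the assembly of mm10, without genes below 3 Mb on chromosomes other than Y, which left 21779 protein-coding genes. A peak was inside a gene when its centre was. Intervals are 95% exact Poisson (densities) or Clopper-Pearson (shares), for counting error only; where a share was 0, the limit printed is 3 counts of the total. Python 3.11.15, pandas 2.3.3 and scipy 1.17.1 were used, and counting was tested on simulated peaks. No test compared groups of 1 library. Single peaks named are those in exons, the widest, the nearest to a TSS and the closest to the other list for each gene, with the remaining peaks of the genes given by position. Partner genes named are the 3 with the most Seh1 peaks per list and the longest without one. The genes, lists and rules were chosen with earlier results of these data known. The item of the naming rule left out of the text is not reported here.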

Additional observations from a re-analysis of the deposited data

How the results depend on the processing

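Of 63 values recomputed under alternatives, 50 stayed within 1.5 times the count or inside the interval reported and 13 did not. The 50 include counts that were 0 in the main setting and stayed 0. These were IgG exon peaks, peaks of the remaining classes and overlaps with an IgG peak. Where an alternative only removes peaks, a count of 0 was fixed in advance and says nothing about stability. Adding lines without a gene name and counting 12 genes of the families were chosen after seeing the data. With peaks inside the gene body only, Seh1 peaks were 9 in place of 15, and intergenic peaks were 0 in both lists by construction. With peaks within 500 kb of the TSS, Seh1 peaks were 9, of which 2 were intergenic, and intergenic IgG peaks were 1. Among peaks wider than the minimum, Seh1 exon peaks were 1 (the Cntnap2 peak has the minimum width), Seh1 intergenic peaks 3, IgG peaks 10 and IgG intergenic peaks 1. With unnamed lines added, Seh1 intergenic peaks were 11. Without peaks over a repeat, densities in the 8 genes were 0.439 (Seh1) and 0.879 (IgG) per Mb. IgG density exceeded Seh1 density under each of the 4 alternatives; the values were closer with bodies extended by 50 kb, at 1.84 (Seh1) and 2.23 (IgG) per Mb, and over the 12 genes, at 1.69 and 2.08. No paired analysis was possible because each group had 1 library. Depth is unknown, and counts of 0 to 5 peaks per gene limit every statement on a single gene.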
